A study of Mus musculus with 15 samples.

Results

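Csrnp1, Maff, Mafk, Srf, Sik1, Trib1, Zfp36, Ier2, Ier3 and Ier5 are genes known for a fast rise after a stimulus, and they were followed here in cortical neurons exposed to kainate, an agonist of AMPA and kainate glutamate receptors. They are 10 of the 15923 genes named on the array, and every probe whose platform annotation carries one of these symbols was taken, which gave 12 probes. The genes were chosen from earlier results of these same arrays against the controls, so each difference from the controls is a description, given without a p-value or a test. The differences between kainate times were tested. A probe entered the tests when its detection p-value was below 0.05 on at least 3 of the 15 arrays. Of the 12 probes 8, from 6 genes, did so, and the probes of Mafk, Trib1, Ier2 and Ier5 were detected on no array.

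The cells were primary neocortical neurons of Swiss Albino mice, taken at gestational day 15 or 16 and at day 5 of culture. The 3 kainate groups received 100 µM kainate for 5 h, 15 h or 24 h, with 3 arrays each. The 6 control arrays are given time 0 and no agent in the sample labels and are called vehicle controls in the series text. Whether replicates came from separate cultures is not given, so a p-value here reflects only how far these samples spread, which may be technical. Each of 3 beadchips held 2 controls and 1 array of every kainate time at fixed positions, so position on the chip and hours in culture cannot be told apart from treatment.

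Immediate early genes are switched on by transcription factors that are already present in the resting cell, so their RNA rises without new protein synthesis. In neurons the usual trigger is calcium entry after glutamate receptor activation, and much of the response runs through serum response factor (Srf) bound to CArG boxes and through CREB bound to cyclic AMP response elements (CRE). Several of the genes act as brakes on the response. Zfp36 (tristetraprolin) speeds the decay of AU-rich transcripts, Sik1 (salt-inducible kinase 1) keeps CREB coactivators out of the nucleus, and the small Maf proteins Maff and Mafk bind DNA but have no activation domain of their own.

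RefSeq promoter sequences (build GRCm38.p6) were at hand for 7 of the 10 genes, with 12 start sites in all. The probes do not tell start sites of a gene apart. Each promoter, from 250 bases before to 50 bases after the start, was searched on both strands for the CArG box, for the CRE TGACGTCA, for its core TGACG, which each full CRE also contains, and for the AP-1 site TGANTCA. The 4 promoters shown are those with a CArG box, a full CRE or an AP-1 site, since these are the elements of the pathways named above. Only the 250 bases before the start are printed, 5′ to 3′ in the direction of the gene, and capitals mark the motifs found on either strand.
Srf, chr17:46556163-46556412, minus strand: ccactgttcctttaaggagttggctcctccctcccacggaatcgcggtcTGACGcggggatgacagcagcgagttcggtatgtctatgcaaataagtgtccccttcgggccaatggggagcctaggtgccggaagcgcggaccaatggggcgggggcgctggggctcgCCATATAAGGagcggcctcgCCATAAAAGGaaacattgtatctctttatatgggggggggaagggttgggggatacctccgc
Zfp36, chr7:28379229-28379478, minus strand: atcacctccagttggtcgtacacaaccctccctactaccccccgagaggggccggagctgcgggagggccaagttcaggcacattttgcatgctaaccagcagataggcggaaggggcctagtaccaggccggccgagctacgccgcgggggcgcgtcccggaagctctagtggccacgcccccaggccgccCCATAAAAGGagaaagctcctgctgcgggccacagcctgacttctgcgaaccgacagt
Maff, chr15:79347270-79347519, plus strand: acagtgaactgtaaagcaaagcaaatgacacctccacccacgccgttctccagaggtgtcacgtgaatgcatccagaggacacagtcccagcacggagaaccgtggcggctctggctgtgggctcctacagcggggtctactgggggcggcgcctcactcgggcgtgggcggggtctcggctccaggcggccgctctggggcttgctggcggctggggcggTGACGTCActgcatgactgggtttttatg
Csrnp1, chr9:119983024-119983273, minus strand: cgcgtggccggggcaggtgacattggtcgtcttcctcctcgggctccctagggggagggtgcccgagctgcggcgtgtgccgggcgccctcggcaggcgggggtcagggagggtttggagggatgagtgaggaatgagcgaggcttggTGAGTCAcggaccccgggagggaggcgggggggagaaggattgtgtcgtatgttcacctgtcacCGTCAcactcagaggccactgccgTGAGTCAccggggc

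The Srf promoter holds 2 CArG boxes, CCATATAAGG starting 82 bases and CCATAAAAGG starting 62 bases before the gene start. Zfp36 has 1 CArG box, with the same letters as the second Srf box, 58 bases before its start. Of 32851 mouse promoters searched in the same way, 1.63% held a CArG box. The second of 3 Maff start sites has a full CRE 29 bases upstream, a motif found in 1.79% of all promoters. The last of 4 Csrnp1 start sites has 2 AP-1 sites, both TGAGTCA, 102 and 14 bases upstream, where 7.81% of all promoters held at least 1. The short core TGACG occurred in promoters of Csrnp1, Maff, Mafk and Srf and in 20.8% of all promoters. None of these motifs occurred in the windows of Ier3 and Ier5. A match of letters is a description of the sequence, not a measured binding site.

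Signals were bead intensities without units, and levels below are log2 of the background-corrected, quantile-normalized intensity. The array median signal lay between 53.4 and 70.4, and 49.5% to 55.2% of the targets were detected per array. A value of a rapid-response probe was the mean of 14 to 75 beads, and its bead standard error was at most 10.3% of the signal. Controls 1 and 3 formed a set of their own. Correlations across probes between them and the other 4 controls were 0.978 to 0.988, against 0.989 to 0.996 among those 4. Some differences below are therefore also given without controls 1 and 3. The others are not, and they can move too. As a check of the labelled cell type, 11 of 14 neuronal marker genes had a tested probe, and Nefl was detected on no array. Centring each array on its median in place of quantile normalization moved the median of all probes, by -0.19 for 24 h against the controls and by -0.27 for 24 h against 5 h, and calls that change with it are named with the genes.

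The 6 genes with a tested probe fell into 3 time patterns. Csrnp1 was high at all 3 times, and whether it was lower at 24 h than earlier depended on the scaling. Maff, Srf and Sik1 were highest at 5 h and lower, but still above the controls, at 15 h and 24 h. Ier3 and, by a smaller margin that was lost under median centring, Zfp36 were higher at 15 h and 24 h than at 5 h. No probe passed the test between 15 h and 24 h.

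**Figure D1:**
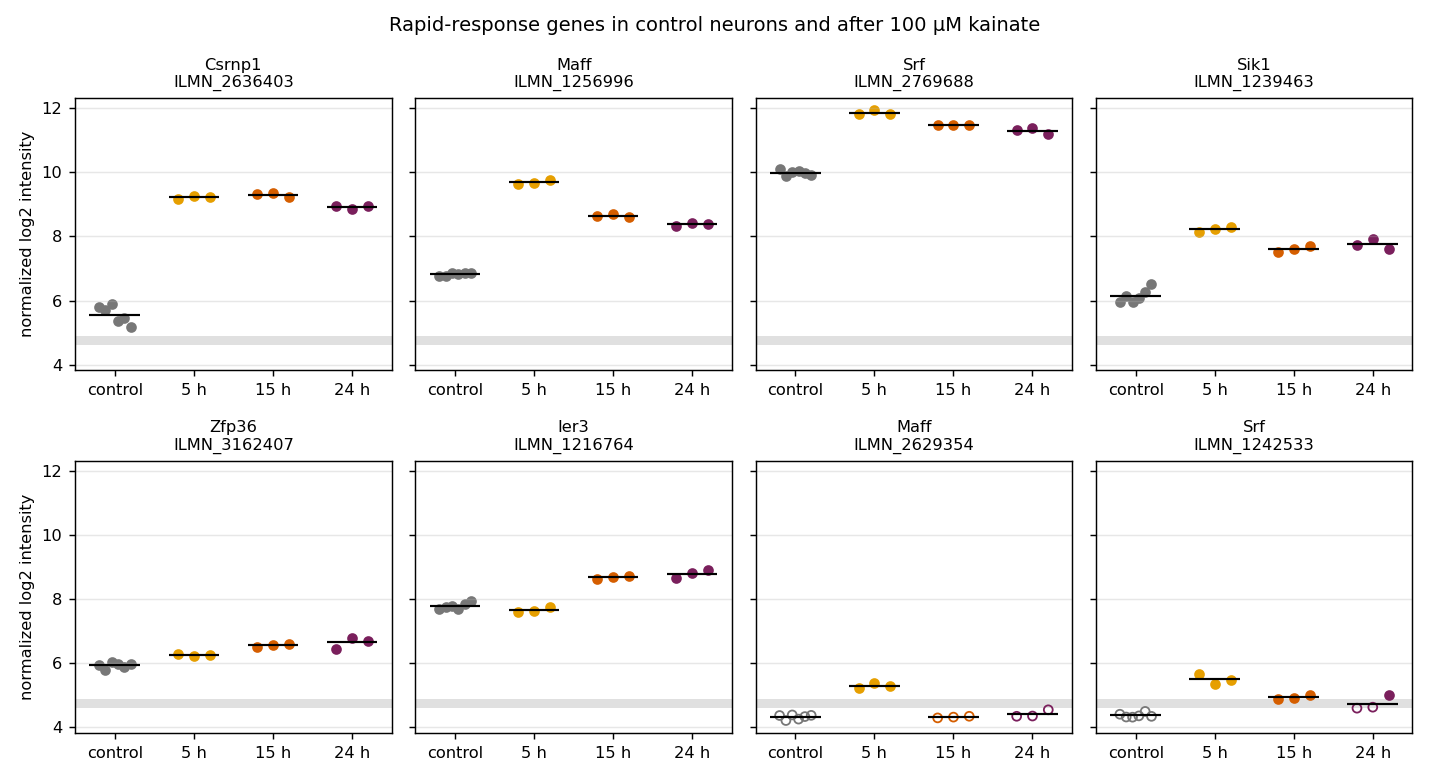
Normalized log2 intensity (y axis) of the 8 tested probes on every array, by group (x axis). Points are arrays, filled where the probe was detected, black bars are group means, and the grey band spans the lowest detected level of the 15 arrays, 4.62 to 4.88. All kainate arrays lie above all control arrays for Csrnp1, the bright Maff and Srf probes, Sik1 and Zfp36, while the 5 h arrays overlap the controls for Ier3.

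Csrnp1 (probe ILMN_2636403) encodes a cysteine- and serine-rich nuclear protein that acts as a transcription factor and was named in human cells for its induction by AXIN1. On the log2 scale its control arrays had a lowest level of 5.17, a median of 5.57 and a highest level of 5.88. The kainate arrays, replicate by replicate, had 9.17, 9.25 and 9.21 at 5 h, 9.33, 9.34 and 9.22 at 15 h, and 8.94, 8.86 and 8.93 at 24 h. All 9 kainate arrays were thus far above all 6 controls, and the kainate times lay close together. The mean was 3.65 ± 0.13 (SE) above the controls at 5 h (12.6-fold), 3.73 ± 0.13 at 15 h (13.3-fold) and 3.35 ± 0.13 at 24 h (10.2-fold). These were larger than the differences of the other 5 genes at each time. Without control replicates 1 and 3, which had the 2 highest control levels, the differences were 3.76, 3.85 and 3.46. In the raw data the mean signal was 81.2 ± 14.1 (SD, n = 6) in the controls, 735.3 ± 77.0 at 5 h, 665.8 ± 111 at 15 h and 391.2 ± 7.88 at 24 h (n = 3 each). The signal itself was therefore lower at 24 h than at 5 h by more than the normalized level was.

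Between times Csrnp1 did not pass limma's test in the quantile-normalized data. The 15 h and 5 h arrays overlapped, with a difference of 0.08 ± 0.15 (adjusted p = 0.705), but a fit with the 5 h arrays and control replicates 1 and 3 as a block gave 0.51 (adjusted p = 0.0225). The 24 h arrays lay below all 15 h and all 5 h arrays, by -0.38 ± 0.15 (adjusted p = 0.269) and -0.30 ± 0.15 (adjusted p = 0.13). Both differences depended on the scaling. After median centring the difference from 15 h was -0.64 (adjusted p = 0.0486) and that from 5 h -0.77 (adjusted p = 0.0011), and in the authors' ratios they were -0.55 (adjusted p = 0.0123) and -0.65 (adjusted p = 0.000135). The difference from 5 h was 0.12 in the fit with that block (adjusted p = 0.584). It passed in 8 of 30 alternatives, of which the 3 single beadchips carry no test. Relative to the median of all probes in each scaling, the 24 h difference from 5 h was -0.32 in the quantile-normalized data, -0.50 after median centring and -0.485 in the ratios.

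**Figure D2:**
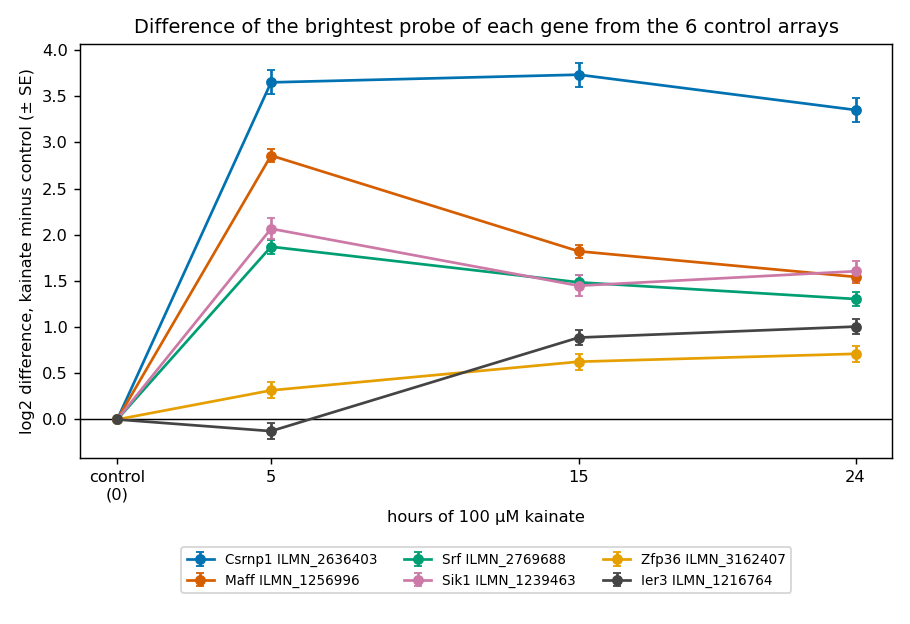
Log2 difference of each kainate time from the 6 controls (y axis, ± SE of the limma fit) against hours of kainate (x axis), for the brightest probe of each of the 6 genes with a tested probe. Csrnp1 stays between 3.35 and 3.73, Maff, Srf and Sik1 are highest at 5 h, and Zfp36 and Ier3 are highest at 24 h.

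Maff encodes a small Maf protein, a basic leucine zipper factor that pairs with Nrf2 or Bach proteins at antioxidant response elements. Its brighter probe (ILMN_1256996) had a lowest, median and highest control level of 6.76, 6.85 and 6.87. Kainate arrays had 9.63, 9.67 and 9.75 at 5 h, 8.65, 8.70 and 8.59 at 15 h, and 8.32, 8.40 and 8.39 at 24 h. The 4 groups did not overlap at all, in the order 5 h, 15 h, 24 h and control from high to low. The difference from the controls was 2.86 ± 0.07 at 5 h (7.25-fold), 1.82 ± 0.07 at 15 h (3.54-fold) and 1.54 ± 0.07 at 24 h (2.92-fold). The level fell by 1.04 ± 0.08 at 15 h relative to 5 h (limma adjusted p = 2.77e-07, lower on 3 of 3 beadchips) and by 1.31 ± 0.08 at 24 h relative to 5 h (adjusted p = 1.78e-08). The further step of 24 h against 15 h, -0.28 ± 0.08, did not pass (adjusted p = 0.137), but passed after median centring at -0.51 (adjusted p = 0.0307) and in the authors' ratios at -0.42 (adjusted p = 0.00875).

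The dimmer Maff probe (ILMN_2629354), which met the detection filter through the 5 h arrays alone, was detected on the 3 arrays at 5 h, with levels of 5.21, 5.40 and 5.30, and on no other array. Its level at 5 h was at least 1.43-fold the control level, at least 1.50-fold the 15 h level and at least 1.51-fold the 24 h level, bounds set by the lowest detected level of each array in the dimmer group. Since the filter let the probe in through these arrays, its peak at 5 h is no second measurement of the time course of Maff. Mafk (ILMN_2683831), the other small Maf gene of the set, was detected on no array, with signals of 33.8 to 57.9, which were 65.8% to 89.5% of the lowest detected signal of the same array.

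Srf is the MADS-box transcription factor that binds CArG boxes, with ternary complex factors or with actin-regulated MRTF proteins as partners. Its brighter probe (ILMN_2769688) was the brightest of the set, with control levels of 9.89, 9.98 and 10.09 as lowest, median and highest. Kainate arrays had 11.81, 11.92 and 11.82 at 5 h, 11.48, 11.46 and 11.47 at 15 h, and 11.30, 11.36 and 11.20 at 24 h. Here too the 4 groups were fully separate and in the same order as for Maff. Srf was 1.87 ± 0.07 above the controls at 5 h (3.66-fold), 1.49 ± 0.07 at 15 h (2.80-fold) and 1.30 ± 0.07 at 24 h (2.47-fold). It fell by 0.39 ± 0.09 at 15 h relative to 5 h (adjusted p = 0.00276) and by 0.57 ± 0.09 at 24 h relative to 5 h (adjusted p = 0.000126). The 15 h fall did not pass in a fit with the 5 h arrays and control replicates 1 and 3 as a block (-0.29, adjusted p = 0.0607). After median centring the falls were larger, -0.71 at 15 h and -1.18 at 24 h, or -0.60 and -0.91 relative to the median of all probes. The further step of 24 h against 15 h, -0.18 ± 0.09, did not pass limma's test (adjusted p = 0.376), but passed in the authors' ratios at -0.42.

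The dimmer Srf probe (ILMN_1242533), which met the filter through kainate arrays alone, was detected on 0 of 6 controls, 3 of 3 arrays at 5 h, 3 of 3 at 15 h and 1 of 3 at 24 h. Its levels were 5.67, 5.34 and 5.49 at 5 h and 4.88, 4.91 and 5.01 at 15 h. This was at least 1.64-fold the control level at 5 h and at least 1.11-fold at 15 h. At 24 h its arrays had 4.60, 4.63 and 5.01, and the detected one was replicate 3. So near the detection limit, and chosen by detection on kainate arrays, the probe is given as a description only.

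Sik1 (ILMN_1239463) encodes salt-inducible kinase 1, itself a CREB target, which phosphorylates CRTC coactivators and class IIa histone deacetylases. Control levels were 5.96, 6.11 and 6.51 as lowest, median and highest. Control replicates 1 and 3 had the lowest levels, 5.96 on each, and the differences without them are not given. Kainate arrays had 8.15, 8.22 and 8.28 at 5 h, 7.51, 7.60 and 7.69 at 15 h, and 7.74, 7.92 and 7.61 at 24 h. The 5 h arrays were above all others, and the 15 h and 24 h arrays overlapped. Against the controls Sik1 was higher by 2.07 ± 0.11 at 5 h (4.19-fold), 1.45 ± 0.11 at 15 h (2.73-fold) and 1.61 ± 0.11 at 24 h (3.04-fold). It fell by 0.62 ± 0.13 at 15 h relative to 5 h (adjusted p = 0.00203). The fall of 0.46 ± 0.13 at 24 h relative to 5 h (adjusted p = 0.0131) did not pass without 24 h replicate 3 (-0.39, adjusted p = 0.0522). The 24 h and 15 h levels differed by 0.16 ± 0.13 (adjusted p = 0.662).

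Zfp36 (ILMN_3162407) encodes tristetraprolin, which recruits deadenylases to transcripts with AU-rich elements. Its levels were 5.78, 5.97 and 6.04 in the controls as lowest, median and highest. Kainate arrays had 6.30, 6.21 and 6.25 at 5 h, 6.51, 6.56 and 6.61 at 15 h, and 6.45, 6.79 and 6.70 at 24 h. All kainate arrays were above all controls, by a smaller margin than for the genes above, and the 15 h and 24 h arrays overlapped. The difference from the controls was 0.32 ± 0.09 at 5 h (1.24-fold), 0.63 ± 0.09 at 15 h (1.54-fold) and 0.71 ± 0.09 at 24 h (1.64-fold). Zfp36 rose by 0.31 ± 0.10 at 15 h relative to 5 h (adjusted p = 0.0272) and by 0.40 ± 0.10 at 24 h relative to 5 h (adjusted p = 0.00649). The call at 15 h was lost without 5 h replicate 2 or 3 and without 15 h replicate 2 or 3 (adjusted p = 0.0679 to 0.086). After median centring the differences were 0.19 (adjusted p = 0.257) and 0.07 (adjusted p = 0.694), and in the authors' ratios 0.16 (adjusted p = 0.14) and 0.09 (adjusted p = 0.373). Relative to the median of all probes the 24 h difference from 5 h was 0.37 in the quantile-normalized data, 0.34 after median centring and 0.26 in the ratios.

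Ier3 (ILMN_1216764) encodes a small stress-induced protein, also known as IEX-1, that acts on cell survival and ERK signalling. Its control levels were 7.69, 7.77 and 7.95 as lowest, median and highest. Kainate arrays had 7.60, 7.64 and 7.75 at 5 h, 8.63, 8.69 and 8.71 at 15 h, and 8.66, 8.81 and 8.90 at 24 h. The 5 h arrays overlapped the controls and the 15 h arrays overlapped the 24 h arrays, with a gap between the earlier and the later pair of groups. The difference from the controls was -0.13 ± 0.08 at 5 h (0.01 after median centring), 0.89 ± 0.08 at 15 h (1.85-fold) and 1.01 ± 0.08 at 24 h (2.01-fold). Ier3 rose by 1.01 ± 0.10 at 15 h relative to 5 h (adjusted p = 1.58e-06) and by 1.13 ± 0.10 at 24 h relative to 5 h (adjusted p = 5.15e-07). These 2 calls kept their direction and passed in every alternative fit, and within the 3 beadchips the differences were 0.96 to 1.05 and 1.07 to 1.17. Under median centring they were 0.78 and 0.64, or 0.89 and 0.92 relative to the median of all probes.

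**Figure D3:**
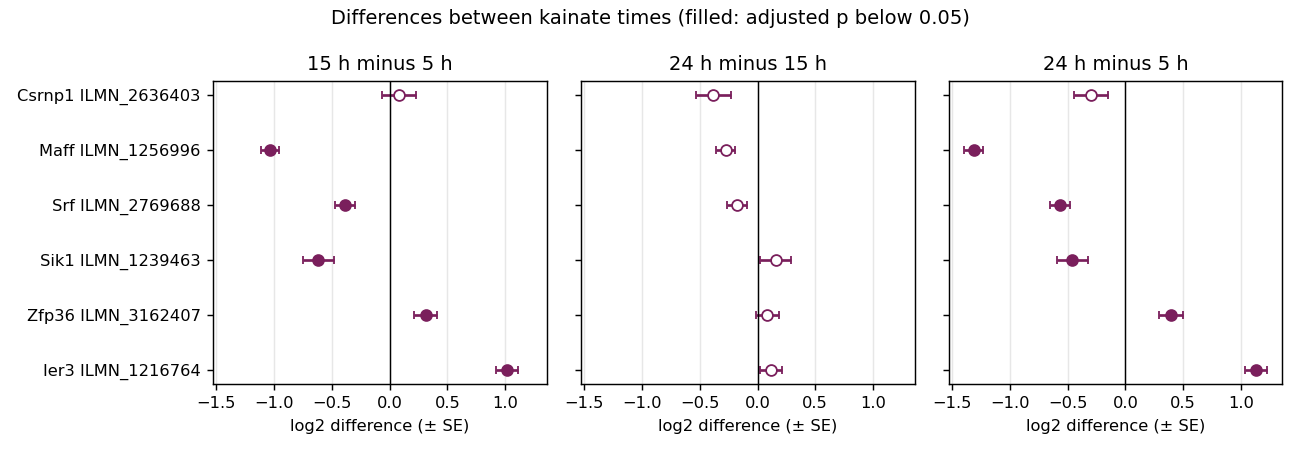
Log2 differences between kainate times (x axis, ± SE) for the 6 probes detected on all 15 arrays, filled where limma's adjusted p was below 0.05. For 15 h and for 24 h against 5 h the Maff, Srf and Sik1 probes lie on the negative side and Zfp36 and Ier3 on the positive side, the Zfp36 calls being lost after median centring, while no point is filled for 24 h against 15 h.

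The other genes of the set gave no usable level. Trib1 (ILMN_2497120), a pseudokinase that brings the COP1 ligase to C/EBP factors, had signals of 39.7 to 60.9, at most 94.1% of the lowest detected signal of the same array. Ier2 (ILMN_2642705), a nuclear immediate early protein, had signals of 41.5 to 52.9, at most 89.6% of it. Ier5 (ILMN_2642275), an immediate early protein linked in human cells to heat shock factor activity, had signals of 34.8 to 57.7, at most 92.5% of it. Their lowest detection p-values were 0.1035 for Trib1, 0.2814 for Ier2, 0.1889 for Ier5 and 0.1603 for Mafk. A probe below detection sets no level, so these 4 genes were neither shown to be absent nor shown to be unchanged.

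**Figure D4:**
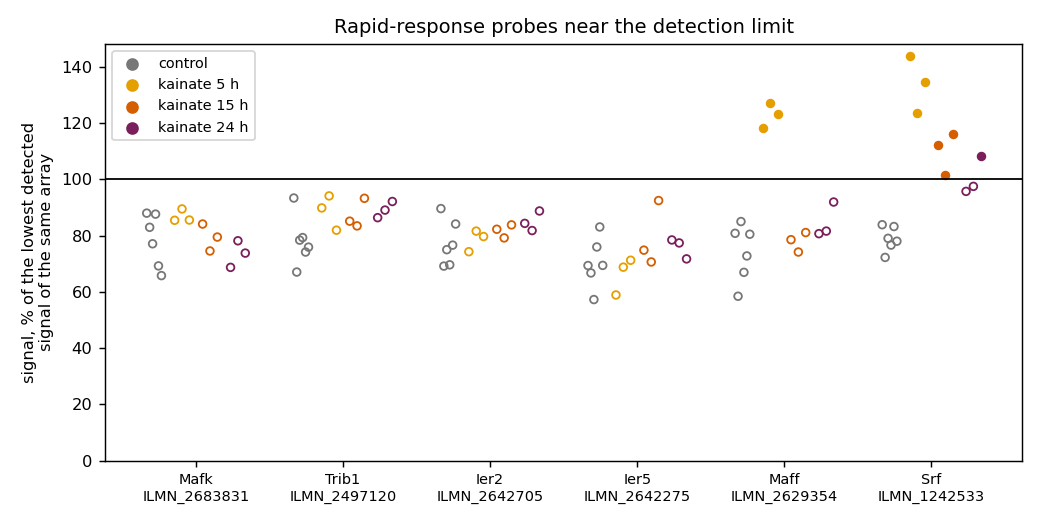
Signal as a percent of the lowest detected signal of the same array (y axis, the line marks 100%) for the 4 undetected probes and the dim Maff and Srf probes (x axis), by group. Filled points are detected arrays. All points of Mafk, Trib1, Ier2 and Ier5 are open and below the line, while the 3 arrays at 5 h are filled for the dim Maff and Srf probes.

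Counted over the 8 tested probes at the threshold used for all probes, 7 were higher than the controls and 0 lower at adjusted p below 0.05 at each kainate time, the remaining one being Ier3 at 5 h and the dim Maff probe at 15 h and 24 h. Among all 14154 probes tested, 17.9% were higher and 20.8% lower at 5 h, 21.8% and 23.5% at 15 h, and 21.1% and 21.9% at 24 h. Because the genes were chosen from these comparisons, nothing is read from that count. The median difference of the 8 probes from the controls was 1.50 at 5 h, 1.17 at 15 h and 1.16 at 24 h, beside -0.03, -0.03 and -0.01 over all probes. For the same reason nothing is read from these medians.

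Between times, 5 of the 8 probes were lower and 2 higher at 15 h than at 5 h, where 16.0% of all probes were lower and 17.0% higher. At 24 h against 5 h it was again 5 lower and 2 higher, beside 17.0% and 18.6% of all probes. The 5 probes came from 3 genes, Maff, Srf and Sik1, and the 2 from Zfp36 and Ier3. They include the dim Maff and Srf probes, which the filter let in through kainate arrays. Among the 6 probes detected on all 15 arrays 3 were lower in each of these comparisons, and nothing is read from the count of 5. At 24 h against 15 h 0 of 8 passed limma's test. That comparison called few probes at all at the adjusted threshold, 0.396% lower and 0.212% higher. The arrays of Csrnp1 and of the bright Maff and Srf probes lay apart, each lower at 24 h. How many of all probes lay apart was not counted, so nothing is read from this. The median difference of the 8 probes was -0.48, -0.05 and -0.51 for 15 h against 5 h, 24 h against 15 h and 24 h against 5 h, beside 0.01, 0.01 and 0.03 over all probes. These medians also include the dim Maff and Srf probes and take Maff and Srf 2 times each, so nothing is read from them.

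The cultures can hold other cells than neurons, and in bulk RNA fewer cells of a type and less RNA per cell cannot be told apart. Of 11 tested neuronal markers 1 rose and 3 fell at 5 h, and 7 fell at 15 h and at 24 h with 0 rising. Their summed level ranged over 22890 to 30340 in control arrays, 23540 to 26030 in 5 h arrays, 17820 to 19090 in 15 h arrays and 16030 to 19190 in 24 h arrays. Of 9 tested astrocyte markers 4 rose at 5 h, 6 at 15 h and 6 at 24 h, where 1 fell, and their sum ranged over 16890 to 17750 in control arrays, 21630 to 22280 in 5 h arrays, 35000 to 36190 in 15 h arrays and 29190 to 33530 in 24 h arrays. Slc1a2 and S100b, of that list, were detected on no array. Neural progenitor markers rose for 4, 8 and 5 of 9 tested, with sums of 3633 to 4157 in control arrays, 7778 to 8839 in 5 h arrays, 10260 to 10890 in 15 h arrays and 8253 to 9089 in 24 h arrays, and Pax6 was detected on no array. The astrocyte sum was higher at 15 h and 24 h than at 5 h, as Zfp36 and Ier3 were, but was highest at 15 h and, unlike Ier3, above the controls at 5 h. The neuronal sum was lower at 15 h and 24 h than at 5 h, as Maff, Srf and Sik1 were. Their part in these levels was not tested.

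Of 6 tested microglia markers 0, 3 and 3 rose and 1, 1 and 0 fell at 5 h, 15 h and 24 h, with sums of 268.6 to 299.4 in control arrays, 245.8 to 262.9 in 5 h arrays, 298.1 to 343.9 in 15 h arrays and 299.7 to 379.0 in 24 h arrays, and Itgam, Fcer1g and Ptprc were detected on no array. Of 7 oligodendrocyte lineage markers 1, 0 and 3 rose and 2, 0 and 0 fell, with sums of 10970 to 12280 in control arrays, 8267 to 8929 in 5 h arrays, 10450 to 11190 in 15 h arrays and 12480 to 15040 in 24 h arrays, and Mag was detected on no array. Endothelial and mural markers rose for 0, 1 and 1 of 4 tested with 0 falling, and Tek, Kdr, Flt1 and Kcnj8 were detected on no array. Fibroblast markers rose for 3, 2 and 2 of 5 tested and fell for 1 at each time, with Col1a2, Lum, Aldh1a2 and Slc6a13 on no array. Their summed level was nevertheless below that of all controls at each time. It was 2530 to 2849 in control arrays and 2401 to 2457 in 5 h arrays. In 15 h arrays it was 1916 to 2120 and in 24 h arrays 1971 to 2229. The 1 tested erythroid marker rose at no time and fell at 15 h and 24 h. None of these lists was tested for a part in the levels of the rapid-response genes.

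**Figure D5:**
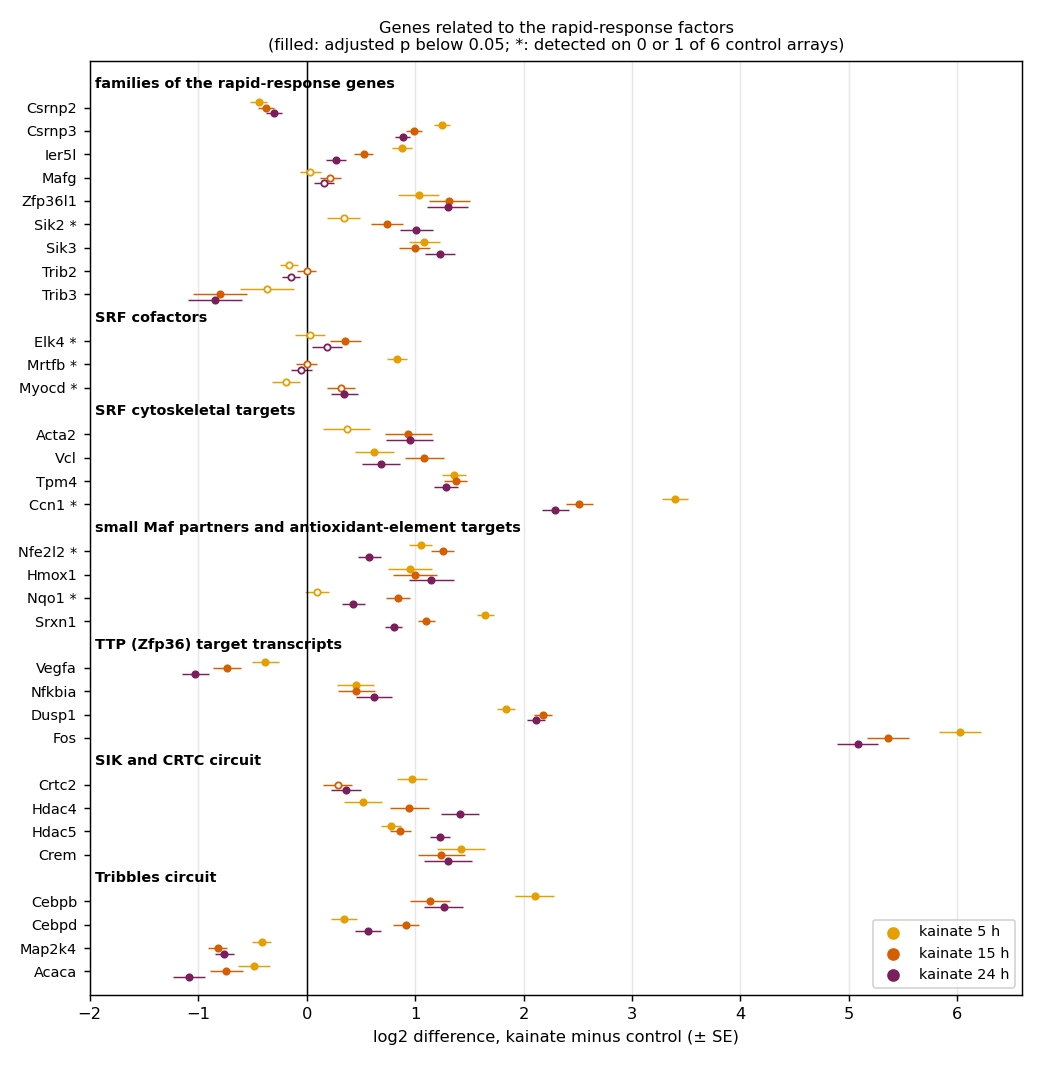
Log2 differences from the 6 controls (x axis, ± SE) at 5 h, 15 h and 24 h for the 32 named genes of 7 related lists (y axis), filled where limma's adjusted p was below 0.05. Fos lies farthest to the right, between 5.08 and 6.02, and the genes marked with an asterisk were detected on 0 or 1 control arrays, so their plotted differences rest on control levels near background. The asterisk genes met the detection filter only with kainate arrays, which favoured a rise. Filled points of Sik2, Nfe2l2 and Mrtfb are descriptions and are not read as tests.

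Relatives, partners and targets of the 10 genes were taken from 7 lists, and 64 genes of them had a tested probe. At 5 h 29 of the 64 rose and 5 fell, at 15 h 30 rose and 7 fell, and at 24 h 31 rose and 6 fell, to be read beside the shares of all probes given above. Under median centring 14 fell at 24 h, and in the authors' ratios 13. The genes listed under the families of the set, 9 of 14 tested, split by gene. Ier3ip1 and Zfp36l2 did not pass the detection filter. Csrnp3 rose by 1.25 ± 0.07 at 5 h, 0.99 ± 0.07 at 15 h and 0.89 ± 0.07 at 24 h (adjusted p = 2.33e-09, 1.77e-08 and 6.93e-08), while Csrnp2 fell by 0.44 ± 0.08, 0.38 ± 0.08 and 0.30 ± 0.08 (adjusted p = 0.000275, 0.000696 and 0.00443). Csrnp2 thus moved opposite to Csrnp3 at each time. Zfp36l1, the Zfp36 paralog, rose by 1.03 ± 0.19, 1.32 ± 0.19 and 1.30 ± 0.19 at 5 h, 15 h and 24 h, and Sik3 by 1.08 ± 0.14, 1.00 ± 0.14 and 1.23 ± 0.14 (adjusted p from 2.98e-06 to 0.000464). Sik2 was detected on no control array and met the detection filter through kainate arrays alone. It was at least 1.59-fold the control level at 15 h and at least 1.91-fold at 24 h. This is a description only, given without a p-value, although the counts above include Sik2 at 15 h and 24 h.

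Ier5l, a relative of Ier5, rose by 0.88 ± 0.09 at 5 h and 0.53 ± 0.09 at 15 h (adjusted p = 1.76e-06 and 0.000172). Its 24 h difference of 0.27 ± 0.09 (adjusted p = 0.0236) turned to -0.04 after median centring and lost its call without 24 h replicate 1 (adjusted p = 0.0581) or 2 (adjusted p = 0.073). Trib3, a stress-induced Tribbles gene, fell by 0.80 ± 0.25 at 15 h and 0.84 ± 0.25 at 24 h (adjusted p = 0.0147 and 0.011), calls that were lost without 15 h replicate 3 (adjusted p = 0.0655) and without 24 h replicate 1 (adjusted p = 0.0591), and the differences were -0.44 and -0.49 without control replicates 1 and 3. Mafg, the third small Maf gene, differed by 0.03, 0.22 and 0.16 and Trib2 by -0.16 at 5 h and -0.14 at 24 h, and neither passed at any time. Trib2 passed at 24 h after median centring, at -0.61 (adjusted p = 0.000575).

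Genes around Srf were counted as cofactors and as cytoskeletal or matrix targets. Of 5 tested cofactors 1 rose and 0 fell at each time, a different gene each time. Mrtfb rose by 0.83 ± 0.09 at 5 h, or by 0.37 with normexp at offset 50. Elk4 rose by 0.36 ± 0.14 at 15 h (adjusted p = 0.0483) and Myocd by 0.35 ± 0.13 at 24 h (adjusted p = 0.0367). Each was detected on 1 of 6 controls, so each met the detection filter only with kainate arrays. Mrtfb met it only with its 5 h arrays, so its difference is a description, given without a p-value. The filter favoured a rise of these 3 genes, and nothing is read from the counts of cofactors. The Elk4 call was lost after median centring (0.31, adjusted p = 0.082). Among the fits that leave out 1 array it held only without control replicate 5 or 15 h replicate 3. Without 15 h replicate 2 the Elk4 difference was 0.19 (adjusted p = 0.335). The Myocd call was lost without control replicate 3, 4, 5 or 6 and without 24 h replicate 1 or 3 (adjusted p = 0.0504 to 0.184). Of 14 cytoskeletal and matrix targets 7 rose at 5 h, 6 at 15 h and 7 at 24 h, and 0, 1 and 1 fell. Tpm4, a tropomyosin gene, rose by 1.36 ± 0.11, 1.37 ± 0.11 and 1.29 ± 0.11 at the 3 times (adjusted p from 5.16e-08 to 1.24e-07), and Ccn1, a matricellular protein gene detected on 1 of 6 controls, by 3.40 ± 0.12, 2.51 ± 0.12 and 2.29 ± 0.12 (adjusted p from 8.7e-12 to 9.57e-10). The size of the Ccn1 differences rests on a control level near background, and with normexp at offset 50 they were 2.15, 1.44 and 1.28. The Ccn1 probe met the detection filter only with kainate arrays, which favoured a rise. Vcl (vinculin) rose by 0.63 ± 0.18, 1.09 ± 0.18 and 0.69 ± 0.18 and Acta2 (smooth muscle actin) by 0.94 ± 0.22 and 0.95 ± 0.22 at 15 h and 24 h (adjusted p at most 0.0112). Without 24 h replicate 3 their 24 h values were 0.42 and 0.62, and the Vcl call at 24 h was lost after median centring (0.38, adjusted p = 0.0946) and in the authors' ratios (0.38, adjusted p = 0.0602).

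Among 9 tested small Maf partners and antioxidant-element targets 5, 6 and 5 rose at 5 h, 15 h and 24 h, and 1, 0 and 0 fell. Srxn1 (sulfiredoxin) rose by 1.65 ± 0.08, 1.11 ± 0.08 and 0.80 ± 0.08 (adjusted p from 2.13e-10 to 5.19e-07), with its highest value at 5 h. Hmox1 (heme oxygenase 1) rose by 0.95 ± 0.20, 1.00 ± 0.20 and 1.15 ± 0.20 (adjusted p from 0.000247 to 0.00163). Over 27 alternatives the Hmox1 difference at 5 h ranged from 0.37 to 1.24, and its call held. Nfe2l2, which encodes Nrf2, was detected on no control array and was at least 1.84-fold, 2.11-fold and 1.32-fold the control level at the 3 times. Nfe2l2 met the detection filter through kainate arrays alone and Nqo1 only with them, so the filter favoured a rise of both. Nqo1, a quinone reductase gene detected on 1 of 6 controls, rose by 0.84 ± 0.11 at 15 h and 0.43 ± 0.11 at 24 h (adjusted p = 9.3e-06 and 0.0042), or by 0.38 and 0.19 with normexp at offset 50.

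Only 6 of 19 known tristetraprolin targets had a tested probe, and 3 rose and 1 fell at each time. Fos, the AP-1 subunit gene, rose by 6.02 ± 0.19 at 5 h, 5.36 ± 0.19 at 15 h and 5.08 ± 0.19 at 24 h (adjusted p = 2.51e-12, 9.31e-12 and 1.78e-11). Dusp1, a MAP kinase phosphatase gene, rose by 1.84 ± 0.08, 2.18 ± 0.08 and 2.12 ± 0.08 (adjusted p from 1.62e-11 to 1.06e-10). Vegfa fell by 0.73 ± 0.13 at 15 h and 1.03 ± 0.13 at 24 h (adjusted p = 0.000173 and 6.86e-06), while its 5 h fall of 0.38 ± 0.13 (adjusted p = 0.0263) was lost without any one of the 5 h arrays or control replicate 4 (adjusted p = 0.0512 to 0.0794) and after median centring (-0.32, adjusted p = 0.107). Nfkbia, an inhibitor of NF-kB, rose by 0.45, 0.46 and 0.62, each ± 0.17 (adjusted p = 0.0444, 0.0357 and 0.0069), and each call was lost in at least 1 fit that leaves out 1 array, at 24 h without 24 h replicate 3 (adjusted p = 0.0541), at 15 h without control replicate 5 or 6 or 15 h replicate 1 or 2 (adjusted p = 0.0666 to 0.121), and at 5 h without 5 h replicate 1 or 2 (adjusted p = 0.198 and 0.112), among others.

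In the Sik1 circuit of kinases, CRTC coactivators, CREB factors and class IIa deacetylases, 6 of 14 tested genes rose at 5 h, 7 at 15 h and 8 at 24 h, and 0, 1 and 0 fell. Crem, a CREB-related gene, rose by 1.42 ± 0.22, 1.24 ± 0.22 and 1.30 ± 0.22 (adjusted p from 9.72e-05 to 0.0002). Over 27 alternatives the Crem difference at 5 h ranged from 0.79 to 1.72, and its call held. The deacetylase genes Hdac5 and Hdac4, whose products are Sik substrates, rose by 1.23 ± 0.09 and 1.41 ± 0.18 at 24 h (adjusted p = 3.31e-08 and 7.77e-06), and Hdac4 by 0.52 ± 0.18 at 5 h (adjusted p = 0.0288), a call lost without any one of the 5 h arrays or control replicate 3 (adjusted p = 0.0525 to 0.108) and at 0.33 (adjusted p = 0.0808) without control replicates 1 and 3. Crtc2 rose by 0.97 ± 0.14 at 5 h (adjusted p = 4.65e-05), and its 24 h difference of 0.37 ± 0.14 (adjusted p = 0.0416) lost its call in 17 of 27 alternatives, among them median centring (0.29, adjusted p = 0.109), the authors' ratios (0.18, adjusted p = 0.11) and leaving out 24 h replicate 1 (0.27, adjusted p = 0.197) or 2 (0.25, adjusted p = 0.223), and was 0.59 without 24 h replicate 3.

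Around the Tribbles proteins, 3, 2 and 2 of 7 tested genes rose and 2 fell at each time. Cebpb, whose product is removed through Tribbles and COP1, rose by 2.10 ± 0.18 at 5 h, 1.14 ± 0.18 at 15 h and 1.26 ± 0.18 at 24 h (adjusted p from 3.02e-07 to 9.66e-05). Cebpd rose by 0.91 ± 0.12 at 15 h and 0.57 ± 0.12 at 24 h (adjusted p = 1.08e-05 and 0.00106), and its 5 h rise of 0.35 ± 0.12 (adjusted p = 0.0303) was lost without any one of the 5 h arrays or control replicate 5 or 6 (adjusted p = 0.0545 to 0.103). After median centring its 24 h call was lost too (0.31, adjusted p = 0.0989). Map2k4, a kinase upstream of JNK, fell by 0.42 ± 0.09, 0.82 ± 0.09 and 0.76 ± 0.09 (adjusted p at most 0.0013). Acaca (acetyl-CoA carboxylase) fell by 0.74 ± 0.15 at 15 h and 1.09 ± 0.15 at 24 h (adjusted p = 0.000667 and 1.99e-05), and its 5 h difference of -0.485 ± 0.15 (adjusted p = 0.0169) lost its call without any one of the 5 h arrays (adjusted p = 0.0508 to 0.0533) and was -0.08 (adjusted p = 0.583) with the 5 h arrays and control replicates 1 and 3 as a block.

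The genes whose profile lay nearest to each rapid-response gene were found by the root mean square difference of log2 values over the 15 arrays, each probe centred on its control mean. Nearest to Csrnp1 were Rnf138rt1 (0.30), Nrn1 (0.56), which encodes the neurite-growth protein neuritin, and Scg2 (0.60), a secretogranin gene. Nrn1 differed from the controls by 3.07, 2.85 and 2.79 at 5 h, 15 h and 24 h, each ± 0.11, and Rnf138rt1 by 3.39, 3.69 and 3.80, each ± 0.16. Egr1, an immediate early zinc finger gene, lay nearest to Sik1 (0.20), with 2.12, 1.50 and 1.51, each ± 0.16. The nearest genes to the others were Znrd1 for Maff (0.16), Plat for Srf (0.16), Hexa for Zfp36 (0.10) and Smoc2 for Ier3 (0.09). Plat, the tissue plasminogen activator gene, differed by 1.59, 1.42 and 1.24, each ± 0.10, and Smoc2, a matricellular protein gene, by -0.15, 0.83 and 1.05, each ± 0.09. These distances describe likeness on these arrays and carry no test.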

How the data were processed

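RNA of 15 samples was measured on Illumina MouseRef-8 v1.1 bead arrays, with 6 control arrays and, for each of the 5 h, 15 h and 24 h kainate times, 3 arrays. The deposited gene profile holds mean bead intensity per target, exported from BeadStudio 3.2.3 with no normalization per the file headers. Its detection score is a fraction, 1 minus a detection p-value, per the file headers. The deposited ratio tables were found from their values to be each array over its median and each target over the control median. A further 72 columns of 9 arrays that match no sample used here were not used.

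Symbols came from the platform annotation, updated through Entrez identifiers. Of 24607 targets with values 20854 had 1 symbol, 1 had several and 3752 had none. From the deposited intensities log2 values were computed with neqc (negative-control levels derived from detection p-values, offset 16, quantile normalization) in limma 3.58.1 under R 4.3.3, after 1 bright target with an inconsistent detection p-value was left out. Probes with a detection p-value below 0.05 on at least 3 arrays were tested, 14154 in all, of which 1844 had no symbol. limma's lmFit and eBayes were fitted to 4 group means with 11 residual degrees of freedom, and p-values were adjusted by Benjamini-Hochberg over all tested probes for each comparison. In simulated data with 14154 probes tested, 2-fold differences between 5 h and control were put into a random part of the brighter detected probes. Of these changed probes 97% were recovered, which does not speak for dim probes.

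For a probe not detected on any array of a group, a fold is a lower bound, the bright group's mean against a mean over the dim group's arrays, each array counted at the probe's own level or at the lowest detected level, whichever is greater. The precision of each value is limited by the number of arrays. The genes and the related and marker lists were chosen with earlier results of these data known. Related genes are named by rule: all genes of the families of the set, and in each other list up to 4 genes past the threshold, those with the largest differences. The nearest genes are the 3 nearest to Csrnp1 and the 1 nearest to each other gene. Alternatives covered scaling, background, the filter on dim probes, samples left out, beadchip and replicate number. Same-numbered arrays did not deviate together in every pair (correlations -0.153 to 0.302), so replicate numbers were not taken as pairs. Promoters were RefSeq sequences of GRCm38.p6.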

Additional observations from a re-analysis of the deposited data

Results flagged for a closer look

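The differences of the rapid-response genes from the controls were not alike at all kainate times, as the tests between times show. At 15 h relative to 5 h the log2 difference was -1.04 for the bright Maff probe, -0.62 for Sik1, -0.39 for the bright Srf probe, 1.01 for Ier3 and 0.31 for Zfp36. At 24 h relative to 5 h it was -1.31 for the bright Maff probe, -0.57 for the bright Srf probe, -0.46 for Sik1, 1.13 for Ier3 and 0.40 for Zfp36. All of these passed limma's test at an adjusted p below 0.05. Since each kainate time is set against the same 6 controls, a difference between 2 times is the difference between the 2 responses and holds no control value. Among 44 probes of the rapid-response and related genes, no control array stood apart from the other 5 by Dixon's 95% limit. Chance gives about 1 in 20, or 2.2 of 44. That limit looks for a single array apart from the rest and can miss 2 arrays that deviate together. It could therefore miss the 2 controls that formed a set of their own, and the absence of flags does not show that the controls were even.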

How the results depend on the processing

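Against the controls, the 24 differences of the rapid-response probes kept the direction of every called value in 705 recomputed values, and 101 of them moved by more than 1 SD. Between times, 705 recomputed values of 24 differences held 11 lost and 15 gained calls and no turned call. The values within single beadchips among them carry no test, so they could not lose or gain a call. Zfp36 at 15 h against 5 h lost its call most often. The number of probes higher at 15 h than at 5 h was 2, but 1 after median centring, in the authors' ratios and with the replicate block, and 1 to 2 when 1 array was left out. The number higher at 24 h than at 5 h was 1, not 2, after median centring and in the ratios. The number lower at 24 h than at 15 h was 0, but 2 after median centring, 3 in the ratios and 1 with no filter on dim probes. With probes detected on all 15 arrays only, 3 and not 5 were lower at 15 h and at 24 h than at 5 h, since the dim Maff and Srf probes drop out by construction. Of the related genes 3 to 6 fell at 5 h when 1 array was left out, and at 24 h 14 fell after median centring and 13 in the ratios, against 6. The causes were not tested. Ier5l at 24 h turned to -0.0357 after median centring.

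The replicate numbers as a block lost 1 of 24 calls between times (Zfp36 at 15 h against 5 h, 0.31, adjusted p = 0.0503) and gained 1 (Csrnp1 at 24 h against 5 h, -0.30, adjusted p = 0.0295). Csrnp1 gained that call also in the ratios, with median centring, normexp at offset 50, no background correction, detection scores as deposited, only the 2 groups in the fit and without controls 1 and 3 (adjusted p = 0.000135 to 0.0413). The beadchip as a block changed 0 of 24 calls. Over all probes the call total of 24 h against 15 h was 86, and 391 after median centring, 505 in the ratios, 138 with normexp, 142 with no filter, 295 with the 5 h arrays and controls 1 and 3 as a block, 237 without controls 1 and 3, 2 with only those groups and 50 with the replicate block. The share of higher calls was 49.1% at 24 h against the controls, and 22.4% after median centring and 25.4% in the ratios. At 24 h against 5 h it was 52.3%, 12.4% and 14.9%, and at 15 h against 5 h 51.6%, 27.1% and 29.9%. At 24 h against 15 h it was 34.9%, 2.81% and 1.39%, and at 5 h against the controls 46.3%, 61.8% and 59.4%. Without 1 of the 5 h arrays the dim Maff probe missed the detection filter and has no value. Signal over background limits Mafk, Trib1, Ier2, Ier5 and the dim probes.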
